A study of Mus musculus with 9 samples.

Results

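Genes of the GDNF niche and of spermatogonial regulation were followed in mouse testes that lack Tmem203, a membrane protein of the endoplasmic reticulum. The group holds 10 genes listed for their role, namely Gdnf, Gfra1, Ret, Kit, Sohlh1, Sohlh2, Zbtb16, Id4, Nanos3 and Dazl, out of 18193 genes that had at least 1 probe set of their own on the array. All probe sets annotated to a single gene of the group were taken. They numbered 18, out of 45037 probe sets other than the manufacturer's controls, and belonged to 9 of the 10 genes: 3 each for Gfra1, Zbtb16 and Id4, 2 each for Ret, Kit and Dazl, and 1 each for Gdnf, Sohlh1 and Sohlh2. Nanos3 had no such probe set and was not analysed here.

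RNA came from testis samples of C57BL/6J mice 24 weeks of age, 4 samples wild-type (WT) and 5 Tmem203 null, none of which had been treated. In the null allele, which is present throughout the body, the start codon and a part of the 5′ UTR were exchanged for vector sequence, and the selection cassette was then removed. Left and right testes were collected individually. The sources used here speak of 5 null mice, as many as the null arrays, but do not state that each array, WT or null, is a separate animal. The p-values therefore cover how far these arrays vary, which may in part be variation within an animal. Each sample was hybridised to an Affymetrix Mouse Genome 430 2.0 array, and all values are log2 signals after Robust Multichip Average. A probe set is said to have passed at an adjusted p under 0.05 in limma, and to be called if it also changed at least 1.5-fold and reached a log2 signal of 5, a signal of 32, on at least 1 array. The medians of the arrays lay between 6.96 and 7.05 and their correlations between 0.993 and 0.998. Markers of the testis were at the top of the range, with Tnp1, a transition protein of spermatids, between 14.40 and 14.52 on all arrays. Tmem203 itself (1426277_at) read 9.67, 9.91, 9.93 and 9.71 in the WT samples and 9.10, 9.13, 9.13, 9.06 and 9.10 in the null samples, a fall of 0.70 ± 0.06 (SE) without overlap (limma, adjusted p = 2.87e-04). Whether its probes lie in the exchanged part was not examined here.

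Spermatogonia are the mitotic germ cells at the base of the seminiferous tubule. A small undifferentiated pool renews itself under GDNF, a growth factor released by Sertoli and peritubular cells, which binds the co-receptor GFRA1 on the germ cell and signals through the kinase RET. Cells that leave this pool switch on the receptor tyrosine kinase KIT, under the control of SOHLH1 and SOHLH2, transcription factors of the basic helix-loop-helix family, which bind the DNA motif called the E-box. ZBTB16 and ID4 mark the undifferentiated pool, and DAZL and NANOS3 are RNA-binding proteins of the germ line.

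Gfra1 on 1 of its 3 probe sets and Kit on both were higher and Sohlh1 was lower in the null testes, while the other measured genes of the group did not pass. The brightest Gfra1 probe set was not the one that passed and was at -0.17. Of the 18 probe sets, 3 passed higher (16.7%), 1 passed lower (5.56%) and 14 did not pass. Over all 34945 single-gene probe sets, 4.83% passed higher and 3.64% passed lower, or 1687 and 1271 probe sets. After centring the arrays on their medians, that split was 1252 higher and 1594 lower. With 1.5-fold required, 2 of the 18 were called higher and 0 lower, against 0.818% and 0.604% of all single-gene probe sets. All 3 higher passes and both calls were of Gfra1 and Kit, which the study already lists as higher from these arrays. Their share above the background is therefore no independent result. The null samples all lay above the WT samples for 5 of the 18 and below for 1, against 6.66% and 6.71% of all. The median log2 change of the 18 was 0.01, and that of all single-gene probe sets was -0.01. The level of 1 probe set, of Ret, stayed under 5 on every array. In whole testis, a change in the share of a cell type and a change in its RNA per cell cannot be told apart. The study reported lighter testes in null than in WT mice of this age.

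**Figure D1:**
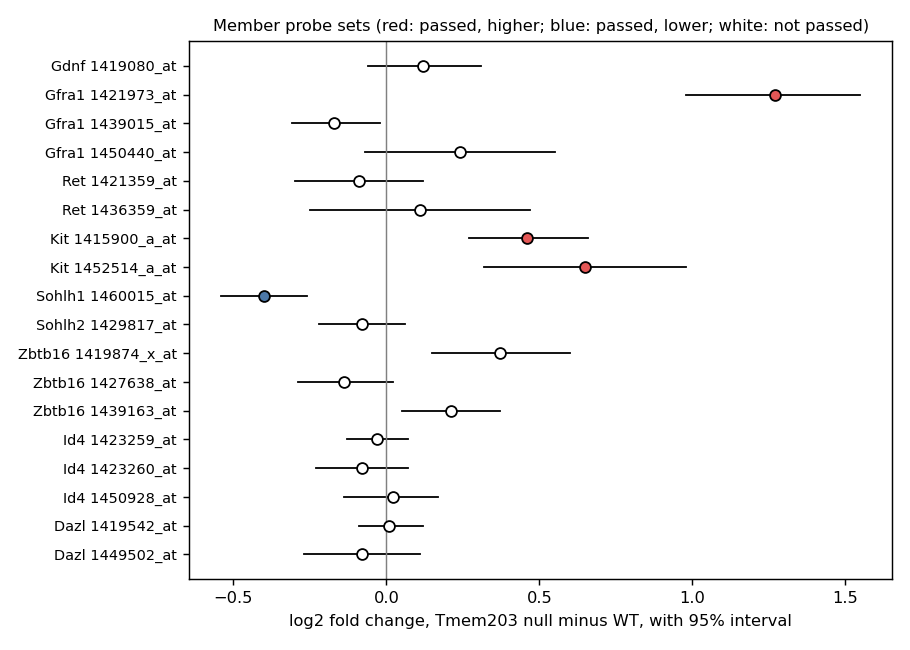
Change of each of the 18 probe sets from WT to Tmem203 null samples (x axis, log2), with its 95% confidence interval from limma. Filled points passed at an adjusted p under 0.05, and the 1421973_at probe set of Gfra1 stands farthest from 0, at 1.27.

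The ligand came first in the pathway and did not pass. Gdnf (1419080_at) read 5.82, 5.99, 5.82 and 5.95 in the WT samples and 6.14, 5.98, 5.97, 5.81 and 6.19 in the null samples. The lowest null sample lay under the lowest WT sample, so the groups overlapped. The difference was 0.12 ± 0.08 (SE), with a 95% interval from -0.06 to 0.31 (limma, adjusted p = 0.409).

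The 3 probe sets of Gfra1, the GDNF co-receptor, gave unlike readings and are given one by one. The first, 1421973_at, read 7.80, 8.29, 8.30 and 7.84 in the WT samples and 9.38, 9.22, 9.09, 9.49 and 9.46 in the null samples. The WT values formed a low pair and a high pair, and the lowest null sample stood 0.79 above the highest WT sample. The means were 8.06 ± 0.28 (SD, n = 4) and 9.33 ± 0.17 (SD, n = 5), a rise of 1.27 ± 0.13 (SE), or 2.41-fold, with a 95% interval from 0.98 to 1.55 (limma, adjusted p = 5.02e-04). Without any single array the rise lay between 1.18 and 1.35 and still passed.

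The second, 1439015_at, read 10.34, 10.35, 10.18 and 10.14 in the WT samples. Null replicates 2 to 5 read 10.16, 10.01, 10.16 and 10.10, and null replicate 1 lay 0.005 under the lowest of these. The null samples thus sat at the level of the lower WT samples or under it, and the groups overlapped. The difference was -0.17 ± 0.07 (SE), with a 95% interval from -0.31 to -0.02, and it did not pass (limma, adjusted p = 0.153). The interval of this probe set and that of 1421973_at share no value. The third, 1450440_at, was close to the detection level of 5, at 4.42, 4.45, 4.72 and 5.18 in the WT samples and 4.89, 4.88, 4.83, 4.97 and 5.07 in the null samples. The groups overlapped only through WT replicate 4. The difference of 0.24 ± 0.14 (SE) did not pass (limma, adjusted p = 0.351), though without WT replicate 4 it was 0.40 with an adjusted p of 0.0274. In the platform annotation 1421973_at and 1450440_at carry the same source sequence, and 1439015_at another. The positions of the probes along the transcript were not used here.

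The gap between the Gfra1 probe sets was tested as such. The log2 difference of 1421973_at from 1439015_at was 1.44 larger in the null samples (exact two-sided permutation test over 126 labellings, p = 0.00794, adjusted over 4 such comparisons p = 0.0106). The value 0.00794 is the smallest these labellings can give, and the 4 comparisons were chosen after the values were seen. Moreover, 1421973_at was taken as the Gfra1 probe set with the smallest p and already separated the groups alone. This p therefore adds no support beyond the fit of 1421973_at.

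Ret, the kinase through which GDNF signals, was at the edge of detection. Its probe set 1421359_at lay between 4.18 and 4.62 over the 9 arrays and under 5 on each. The other, 1436359_at, read 4.37, 4.63, 4.75 and 4.34 in the WT samples and 5.17, 4.37, 4.57, 4.36 and 4.70 in the null samples. Only null replicate 1 exceeded 5, and the groups overlapped. The differences were -0.09 ± 0.09 (SE, adjusted p = 0.607) and 0.11 ± 0.16 (SE, adjusted p = 0.724) in limma, with 95% intervals from -0.30 to 0.12 and from -0.25 to 0.47.

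**Figure D2:**
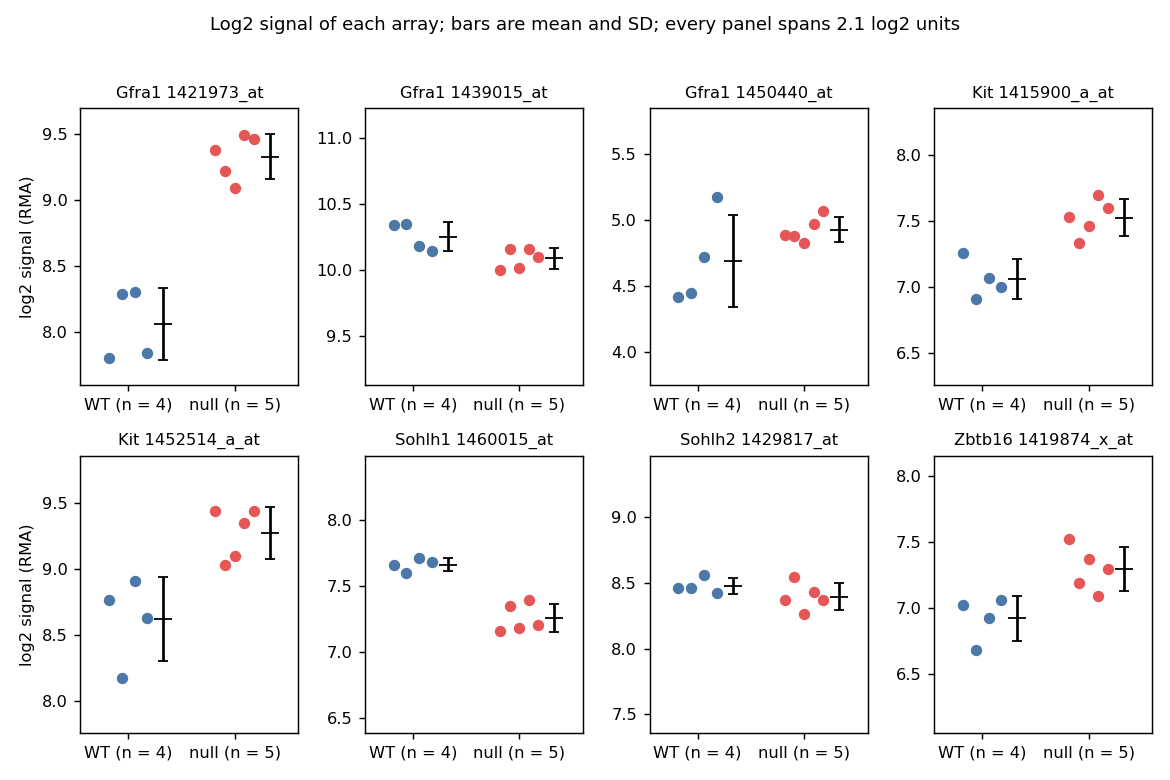
Log2 signal (y axis) of each WT sample (blue, n = 4) and each Tmem203 null sample (red, n = 5) for 8 probe sets, with the mean and SD as black bars and panels of equal height in log2 units. For Gfra1 1421973_at all null samples stand above all WT samples, from 9.09 upward against 8.30 at most, whereas for Gfra1 1439015_at the groups overlap.

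Kit, the receptor of differentiating spermatogonia, passed on both of its probe sets. The probe set 1415900_a_at read 7.26, 6.91, 7.07 and 7.0 in the WT samples and 7.53, 7.33, 7.46, 7.70 and 7.60 in the null samples. All null samples were above all WT samples, though WT replicate 1 came within 0.08 of null replicate 2. The rise was 0.46 ± 0.09 (SE), with a 95% interval from 0.27 to 0.66 (limma, adjusted p = 0.0122), and its 1.38-fold was under the 1.5-fold needed for a call. Without any single array it lay between 0.41 and 0.53 and still passed.

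The probe set 1452514_a_at read 8.76, 8.17, 8.91 and 8.63 in the WT samples and 9.44, 9.03, 9.10, 9.35 and 9.44 in the null samples. Again no WT sample reached the lowest null sample, and WT replicate 2 was the lowest of all. The means were 8.62 ± 0.32 (SD, n = 4) and 9.27 ± 0.19 (SD, n = 5), a rise of 0.65 ± 0.15 (SE), or 1.57-fold, with a 95% interval from 0.32 to 0.98 (limma, adjusted p = 0.0259). This call depended on single arrays. The adjusted p was 0.0659 without null replicate 1, 0.0617 without null replicate 4, 0.0663 without null replicate 5 and 0.0537 without WT replicate 4, with the rise between 0.50 and 0.75 over all single omissions. The log2 difference between the 2 Kit probe sets was 0.19 larger in the null samples, which the exact permutation test did not separate from the spread (p = 0.183, adjusted p = 0.183).

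Sohlh1, a factor needed for spermatogonial differentiation, moved the other way. Its probe set 1460015_at read 7.66, 7.60, 7.71 and 7.68 in the WT samples and 7.16, 7.35, 7.18, 7.39 and 7.20 in the null samples. The null samples were all lower, by 0.21 at the nearest. The means were 7.66 ± 0.05 (SD, n = 4) and 7.26 ± 0.11 (SD, n = 5), a fall of 0.40 ± 0.06 (SE), or 1.32-fold, with a 95% interval from -0.54 to -0.26 (limma, adjusted p = 0.00469). Without any single array the log2 change lay between -0.44 and -0.38 and still passed.

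Its partner Sohlh2 (1429817_at) read 8.46, 8.46, 8.56 and 8.42 in the WT samples and 8.37, 8.54, 8.26, 8.43 and 8.37 in the null samples. The groups overlapped, and the difference of -0.08 ± 0.06 (SE) did not pass (limma, 95% interval from -0.22 to 0.06, adjusted p = 0.475). The log2 difference of Sohlh1 from Sohlh2 changed by -0.32 between WT and null samples (exact permutation p = 0.00794, adjusted p = 0.0106). Since Sohlh1 alone already separated the groups, this p adds no support beyond its fit.

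The promoters of Gfra1, Kit and Sohlh1, the 3 genes that passed, are shown because the E-box is the motif that the SOHLH and E proteins bind and ID proteins act on by holding E proteins off the DNA. Each window runs from 250 bases before to 50 bases after the annotated start (RefSeq, GRCm38.p6), 5′ to 3′ along the gene's own strand, with each E-box in capitals. They lie at chr19:58455349-58455648 on the minus strand for Gfra1, chr5:75574737-75575036 on the plus strand for Kit and chr2:25847199-25847498 on the minus strand for Sohlh1.
Gfra1: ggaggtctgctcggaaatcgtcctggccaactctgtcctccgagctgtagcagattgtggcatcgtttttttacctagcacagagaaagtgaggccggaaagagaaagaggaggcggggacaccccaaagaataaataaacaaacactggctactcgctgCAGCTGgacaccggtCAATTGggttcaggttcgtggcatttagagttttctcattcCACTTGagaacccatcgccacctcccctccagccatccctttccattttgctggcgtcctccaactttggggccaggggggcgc
Kit: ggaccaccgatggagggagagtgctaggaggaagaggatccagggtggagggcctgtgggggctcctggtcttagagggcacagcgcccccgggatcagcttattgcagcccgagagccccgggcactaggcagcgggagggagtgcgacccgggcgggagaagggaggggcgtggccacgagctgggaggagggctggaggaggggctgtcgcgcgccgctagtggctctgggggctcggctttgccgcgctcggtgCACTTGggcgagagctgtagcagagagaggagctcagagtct
Sohlh1: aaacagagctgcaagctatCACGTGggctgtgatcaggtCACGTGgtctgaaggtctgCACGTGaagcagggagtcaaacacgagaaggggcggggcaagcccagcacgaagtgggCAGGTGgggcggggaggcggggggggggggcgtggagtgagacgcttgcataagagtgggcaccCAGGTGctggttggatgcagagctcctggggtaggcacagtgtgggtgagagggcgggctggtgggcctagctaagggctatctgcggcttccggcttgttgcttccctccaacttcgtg

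The E-box was searched as CANNTG, which reads the same on both strands, and CACGTG, a form that CANNTG includes, was counted apart. Positions count from the first base of the E-box, with -1 the base just before the start and 1 the start itself. Gfra1 held 3 E-boxes, at -90, -75 and -34, none of them CACGTG. Kit held 1, at 9, and the window of its other annotated start holds the same E-box at 5. Sohlh1 held 5, at -231, -211, -192, -134 and -70, of which the 3 farthest from the start were CACGTG.

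Among all 32851 promoter windows of the same length, 72.3% held at least 1 CANNTG, 17.6% at least 3 and 2.1% at least 5. At least 1 CACGTG was in 7.15% of them and at least 3 were in 0.0883%, or 29 windows. Of the other genes of the group, Sohlh2 had 1 E-box at -241, Dazl 1 at -192, Nanos3 2 at -193 and -148, and Gdnf 1 in each of its windows, at -17 and at -176. Id4 had 0 in its window. Of the 10 windows of 8 genes, 9 held CANNTG and 1, that of Sohlh1, held CACGTG. Ret and Zbtb16 are named only. These matches describe letters in the windows, not bound sites.

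**Figure D3:**
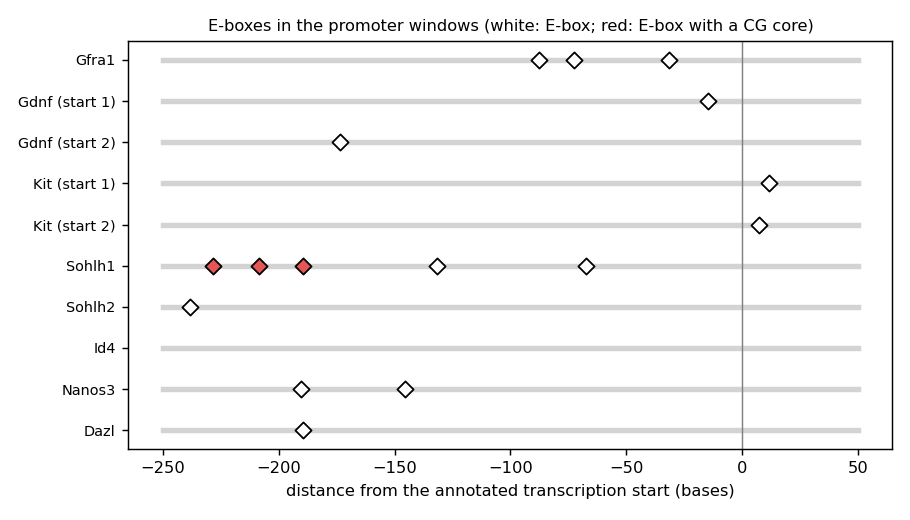
Position of each E-box (diamonds) in the promoter windows of 8 genes, as distance in bases from the annotated start (x axis). Sohlh1 is the gene with E-boxes of the CG-centred form (red), at -231, -211 and -192.

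The transcription regulators of the undifferentiated pool within the group, Zbtb16 and Id4, did not pass. Zbtb16, a transcriptional repressor needed for stem cell maintenance, had 3 probe sets. The probe set 1419874_x_at read 7.02, 6.68, 6.92 and 7.06 in the WT samples and 7.52, 7.19, 7.37, 7.09 and 7.29 in the null samples. All null samples were above all WT samples, by 0.04 at the nearest. The difference of 0.37 ± 0.10 (SE) just missed the threshold (limma, adjusted p = 0.0514, 95% interval from 0.15 to 0.60), and without null replicate 4 the adjusted p was 0.0464.

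The probe set 1439163_at of Zbtb16 read 7.10, 6.94, 6.81 and 7.10 in the WT samples and 7.28, 7.14, 7.16, 7.20 and 7.21 in the null samples, again without overlap. Its difference was 0.21 ± 0.07 (SE, limma, adjusted p = 0.104). The third, 1427638_at, was closer to the detection level, with means of 5.48 in WT and 5.35 in null samples. It differed by -0.14 ± 0.07 (SE, limma, adjusted p = 0.271) and its groups overlapped. The probe sets of Zbtb16 thus differed in sign, the dimmest being the one that was lower.

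Id4, an inhibitor of E proteins found in the stem cells, had mean levels of 11.98 and 11.96 (1423259_at), 9.38 and 9.30 (1423260_at), and 11.07 and 11.08 (1450928_at) in WT and null samples. The differences of its 3 probe sets were -0.03, -0.08 and 0.02, with adjusted p-values in limma of 0.764, 0.535 and 0.921. Dazl, a translational regulator of germ cells, had means of 11.49 and 11.51 (1419542_at) and 11.00 and 10.91 (1449502_at). Its differences were 0.01 and -0.08 (limma, adjusted p = 0.886 and 0.598). The groups overlapped for all 5 of these probe sets.

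Around the group, 9 lists of genes of the same pathways were read, each gene through its detected probe set with the smallest p. Of 16180 genes read this way, 8.03% passed higher and 6.82% passed lower. Of the 78 measured genes on the lists, 15 passed higher and 8 passed lower. When each gene was read by its brightest probe set instead, these counts were 9 and 5, and over all genes 6.5% then passed higher and 5.32% lower. From these same arrays the study already lists Cxcr4, Egr2, Igf1 and Tspan8 as higher and Eomes as lower. The lists were also chosen with earlier results of these data known, so their counts are no independent result. Of the 35 genes of the pathway and cell type lists that passed, 15 did so also without each array in turn, and these are Gfra2, Ncam1, Grb2, Lhx1, Eomes, Tspan8, Ccnd2, Ptpn11, Igf1, Gata4, Sox9, Cyp11a1, Hdc, Mrc1 and Vwf. Gfra4, Etv5, Egr2, Wnt5a, Sall4, Thy1, Lin28a, Uchl1, Stra8, Dmrt1, Wt1, Rhox5, Clu, Tpsb2, Fcer1a, Mcpt4 and Ms4a2 are outside the rule by which genes were named and were added after their values were seen.

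Of the GDNF family of ligands and receptors besides the members, 6 of 8 genes were measured, 0 passed higher in limma (0 also at an unadjusted p under 0.05 and by the methods' t-test), 4 passed lower and 2 did not pass, with a median of -0.27. Read by the brightest probe set, only 2 passed lower in limma and the median was -0.16. Gfra2, the co-receptor for neurturin, read 9.09, 9.12, 9.01 and 9.09 in the WT samples and 8.68, 8.88, 8.79, 8.74 and 8.82 in the null samples. All null samples were lower, and the fall was 0.30 ± 0.05 (SE, limma, adjusted p = 0.00955), while its other detected probe sets differed by -0.13 to -0.05 and did not pass. Ncam1, a cell adhesion molecule that also binds GDNF, changed by -0.32 (limma, adjusted p = 0.0146), with its other probe sets between -0.21 and 0.22. Artn, the ligand artemin, changed by -0.44 (limma, adjusted p = 0.0252), and Gfra4, the co-receptor for persephin, by -0.24 (limma, adjusted p = 0.0265). The pass of Artn needed each of null replicates 1, 3 and 4 and of WT replicates 1 and 2 (adjusted p up to 0.074 when 1 was left out), and that of Gfra4 needed each of null replicates 1, 3 and 5 and WT replicate 2 (up to 0.0755). The log2 difference of Gfra1 1421973_at from Gfra2 1423007_a_at was 1.57 larger in the null samples (exact permutation p = 0.00794, adjusted p = 0.0106). Because the first was higher and the second lower in every null sample, this p could only be the smallest possible. It adds nothing to the fits of the 2 probe sets.

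Downstream of RET, 8 of 10 adaptors and kinases were measured, 2 passed higher, 0 lower and 6 did not pass, with a median of 0.07. The adaptor Grb2 rose by 0.42 (limma, adjusted p = 0.0138) on 1 of 2 probe sets, the other being at -0.02. The Src family kinase Fyn rose by 0.35 (limma, adjusted p = 0.0192), with its other probe set also passing at 0.32, and did not pass without null replicate 5 (adjusted p = 0.0528). Gab1, a docking protein, was at 0.26 and did not pass (limma, adjusted p = 0.0856).

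Of 9 genes known to respond to GDNF in spermatogonia, 8 were measured, 4 passed higher, 1 passed lower and 3 did not pass, with a median of 0.24. Cxcr4, the receptor for the chemokine CXCL12, read 9.63, 8.94, 9.57 and 9.51 in the WT samples and 10.27, 9.81, 10.04, 9.98 and 10.29 in the null samples. The null samples were all higher, and WT replicate 2 was the lowest of all. The rise was 0.66 ± 0.15 (SE, limma, adjusted p = 0.0241), and leaving out null replicate 1, 3 or 5 ended the pass (adjusted p = 0.0613, 0.0502 and 0.0612).

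Lhx1, a homeobox factor, read 8.07, 8.01, 8.33 and 8.21 in the WT samples and 7.62, 7.70, 7.76, 7.71 and 7.84 in the null samples. It was lower in every null sample, opposite in direction to Cxcr4, and its change was -0.43 ± 0.07 (SE, limma, adjusted p = 0.0074). The transcription factors Pou3f1, Etv5 and Egr2 rose by 0.36, 0.40 and 0.60 (limma, adjusted p = 0.0295, 0.0338 and 0.034). The other probe set of Pou3f1 was at -0.05, those of Etv5 at -0.02 and 0.30 and that of Egr2 at 0.49. Each of these 3 passes was lost without at least 6 of the 9 arrays, null replicate 1 and WT replicate 2 among them, with adjusted p-values up to 0.071, 0.101 and 0.0821.

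Of 16 further genes of undifferentiated spermatogonia, 14 were measured, 2 passed higher, 1 passed lower and 11 did not pass, with a median of -0.01. Eomes, a T-box factor of a subset of the GFRA1-positive cells, read 5.47, 5.82, 5.71 and 5.87 in the WT samples and 4.31, 4.57, 4.80, 4.47 and 4.52 in the null samples. It was above the detection level of 5 in every WT sample and below it in every null sample. With the null samples set to that level, Eomes was at least 1.65-fold lower in them on this probe set (fit on the measured values, limma, adjusted p = 2.81e-04). Its other probe set also passed lower, and there too the null samples were all under 5, at 4.63 at most. The bound from that probe set was only 1.2-fold. Tspan8, a surface tetraspanin, read 9.50, 9.20, 9.22 and 9.07 in the WT samples and 10.25, 9.92, 10.01, 9.99 and 10.03 in the null samples, with no overlap. It rose by 0.79 ± 0.09 (SE, limma, adjusted p = 0.00115), and 4 of its 5 probe sets passed. Foxo1, a forkhead factor, rose by 0.34 (limma, adjusted p = 0.0228) on 1 of 4 probe sets, a pass that each of null replicates 1, 4 and 5 and WT replicates 2 and 4 was needed for (adjusted p up to 0.0707). Among the genes that did not pass, Uchl1 was at -0.01, Lin28a at -0.01, Sall4 at 0.15 and Thy1 at 0.16.

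Of 7 further genes of differentiating spermatogonia, all were measured, 1 passed higher, 0 lower and 6 did not pass, with a median near 0. Ccnd2, the cyclin D2 of the cell cycle, rose by 0.44 (limma, adjusted p = 0.0143). Its 7 probe sets lay between 0.28 and 0.44, and 2 passed. Stra8, the gatekeeper of meiotic entry that retinoic acid induces, was at 0.03 (limma, adjusted p = 0.867), and Dmrt1, a regulator of the mitosis to meiosis switch, was within 0.01 of 0 (limma, adjusted p = 0.993).

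Of the KIT ligand and its signalling genes, 8 of 9 were measured, 2 passed higher, 1 passed lower and 5 did not pass, with a median of 0.23. Kitl, the KIT ligand made by Sertoli cells, read 9.19, 9.16, 9.30 and 9.34 in the WT samples and 9.77, 9.43, 9.52, 9.44 and 9.59 in the null samples. All null samples were higher, and the rise was 0.30 ± 0.08 (SE, limma, adjusted p = 0.0432), with 2 of 4 probe sets passing. Of the single omissions, it still passed only without null replicate 2 (adjusted p = 0.0435), and the others gave adjusted p-values up to 0.121. Ptpn11, a phosphatase that relays signals of receptor kinases, rose by 0.41 (limma, adjusted p = 0.00685) on 1 of 3 probe sets, the others being at 0.07 and 0.23. Gab2, a docking protein, changed by -0.36 (limma, adjusted p = 0.0456), against 0.15 and 0.18 on its other probe sets, and passed only without WT replicate 3 when single arrays were left out.

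**Figure D4:**
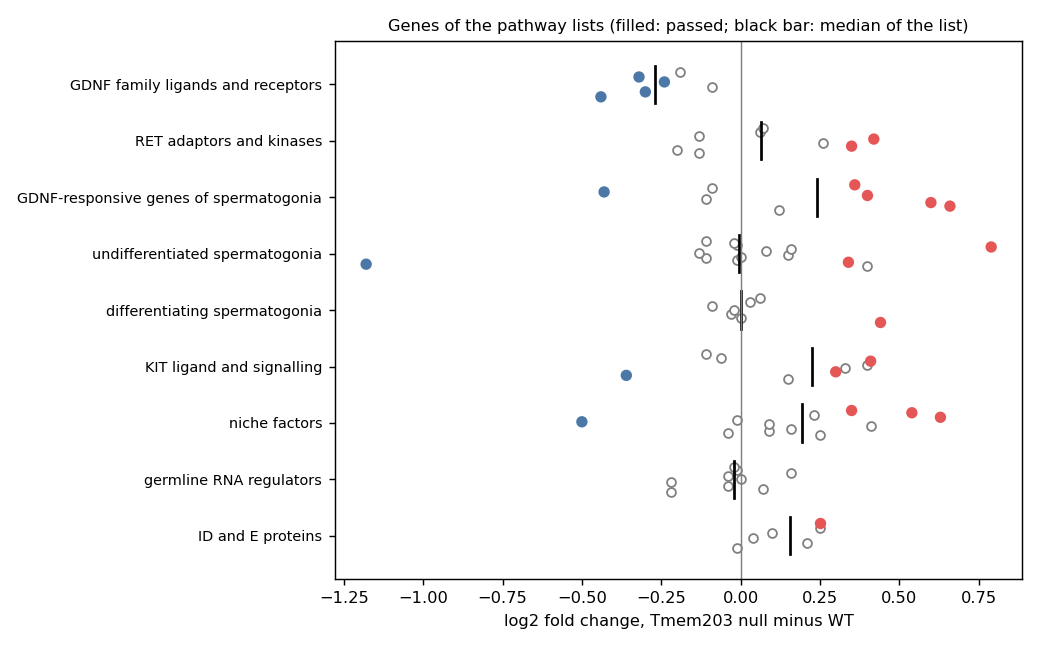
Each measured gene of the 9 pathway lists by its log2 change from WT to null samples (x axis), with filled points for genes that passed and a black bar at the median of each list. The GDNF family list lies left of 0, with a median of -0.27 (-0.16 by the brightest probe sets, not drawn), and the GDNF-responsive list has 4 genes higher and 1 lower. Eomes, the point farthest left, is plotted at its measured difference although its null signals are under the detection level.

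Of 14 other factors of the niche, 12 were measured, 3 passed higher, 1 passed lower and 8 did not pass, with a median of 0.19. Read by the brightest probe set, 0 passed higher in limma and the median was 0.09. Igf1, a growth factor of Leydig and Sertoli cells, rose by 0.63 (limma, adjusted p = 0.0149) on 1 of 4 probe sets, and its brightest was at -0.03 (adjusted p = 0.916). Of the WNT family of secreted ligands, Wnt6 rose by 0.35 (limma, adjusted p = 0.0239), with its other probe set at 0.19, and Wnt5a by 0.54 (limma, adjusted p = 0.0341), with its other detected probe sets at 0.39 and 0.47. Fgf2, a mitogen of stem cells, changed by -0.50 (limma, adjusted p = 0.0247). The pass of Wnt6 was lost without WT replicate 1, 2 or 4 (adjusted p up to 0.0595), and those of Fgf2 and Wnt5a were each lost without 6 of the 9 arrays, WT replicates 1 and 2 and null replicates 4 and 5 among them (up to 0.0674 and 0.104). Germline RNA regulators other than Dazl and Nanos3 gave 0 passes in 9 measured genes of 10 under limma, where 3 had an unadjusted p under 0.05, and 0 by the methods' t-test. Boll, a relative of Dazl, was at -0.22 (adjusted p = 0.104), Dnd1 at -0.22 (adjusted p = 0.124) and Pum2 at 0.16 (adjusted p = 0.15). Of 6 ID and E proteins, Tcf4, an E protein, passed at 0.25 on 1 probe set (limma, adjusted p = 0.0356), and of the single omissions it still passed only without WT replicate 1 or null replicate 2 (adjusted p otherwise up to 0.0973). Its other detected probe sets did not pass and differed in sign, with 2 at -0.15 and -0.18, both lower in all null samples, and the remaining ones at 0.27 and 0.35. The other 5 did not pass, with Id2 at 0.21 and Tcf3 at 0.25.

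Some markers of somatic cells passed on the same arrays. Of 9 measured Sertoli cell genes, 6 passed higher and 0 lower, with a median of 0.27, among them Gata4 at 0.38 (limma, adjusted p = 0.0066) and Sox9 at 0.38 (limma, adjusted p = 0.0108). The other 4, Wt1, Cldn11, Rhox5 and Clu, each needed at least 4 of the 9 arrays, null replicates 1 and 4 and WT replicate 2 among them (adjusted p up to 0.0987), and none of these 4 passed after centring on medians (0.0502 to 0.0817). The summed level of all 9 measured Sertoli cell genes, to which Clu gave the largest part, was 14.55 to 14.61 in WT and 14.76 to 14.84 in null samples. Leydig cells and mast cells are also known to carry KIT. Of 4 measured Leydig cell genes, 2 passed higher, with Cyp11a1, which makes pregnenolone, at 0.50 (limma, adjusted p = 0.00468) and Hsd17b3, which makes testosterone, at 0.45 (limma, adjusted p = 0.0249). A far brighter Cyp11a1 probe set was at 0.34, with overlapping groups, and did not pass (limma, adjusted p = 0.383). The pass of Hsd17b3 needed each of null replicates 1, 4 and 5 and of WT replicates 2 and 4 (adjusted p up to 0.0783). The summed level of the list was 13.61 to 14.31 in WT and 13.91 to 14.53 in null samples, so it overlapped.

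Of 7 mast cell genes, Fcer1a, Mcpt4 and Ms4a2 were under 5 on every array, Hdc passed at 0.43 (limma, adjusted p = 0.00159), and Cpa3, Cma1 and Tpsb2 did not, at 0.46, -0.22 and -0.08. The summed level, to which Hdc gave most, was 10.17 to 10.30 in WT and 10.56 to 10.78 in null samples, whereas the mean log2 level of the list overlapped, at 6.51 to 6.67 and 6.65 to 6.81. Of 6 macrophage genes, Mrc1 passed at 0.41 (limma, adjusted p = 0.0127) and Cd163 at 0.58 (limma, adjusted p = 0.0346), the latter needing each of null replicates 1, 4 and 5 and WT replicates 2, 3 and 4 (adjusted p up to 0.0995). Of 5 endothelial genes, Vwf passed lower at -0.37 (limma, adjusted p = 0.013), and of 5 myoid genes 0 passed, in limma or by the methods' t-test, with 0 at an unadjusted p under 0.05. Of the 8 spermatocyte, 6 round spermatid and 8 elongating spermatid genes, 0 passed in limma or by the methods' t-test, with 1 spermatocyte gene at an unadjusted p under 0.05 and list medians of -0.05, -0.05 and near 0. The elongating spermatid list averaged 14.1 to 14.13 in WT and 14.08 to 14.13 in null samples, at the top of the range. Whether a loss of RNA would show at such signals was not tested. By DNA flow cytometry, the study reported a large loss of condensed haploid cells in older null mice, with the other stages comparable to WT. By light microscopy, in mice older still, it described the reduction in late spermatids as subtle. The part of any of the listed cell types in the changes of Gfra1, Kit and Sohlh1 was not tested.

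**Figure D5:**
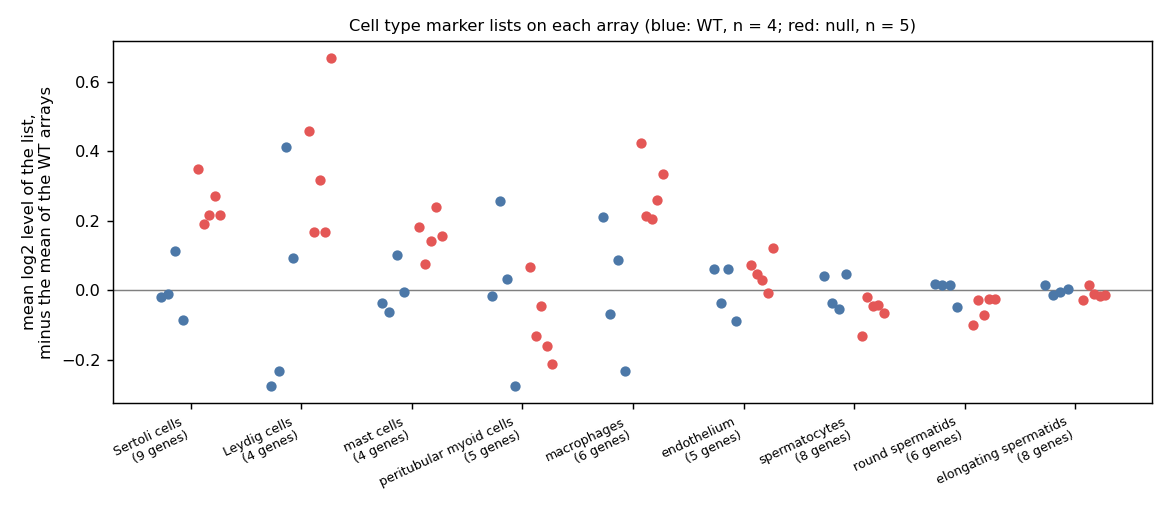
Mean log2 level of each cell type marker list on each array, minus the mean of the WT samples (y axis), for WT (blue, n = 4) and Tmem203 null samples (red, n = 5). The Sertoli cell list is higher in all null samples, while the spermatid lists, whose signals are at the top of the range, stay near 0 in both groups.

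As a measure of RNA quality, the log2 difference of the 3′ from the 5′ probe set of Gapdh averaged 0.93 ± 0.01 in the 4 WT samples and 0.85 ± 0.04 in the 5 null samples (SD, exact two-sided permutation test, p = 0.0238), and that of beta-actin differed by -0.03 (p = 0.341). Its part in the results was not tested.

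Over the 9 arrays, the genes whose levels followed Gfra1 1421973_at most closely were Fam155a (r = 0.99), Ldhd (r = 0.985), Npl (r = 0.985), Snhg18 (r = 0.985) and Chrna4 (r = 0.984). With the mean of each genotype taken out, which leaves the variation within groups, they were Cryzl1 (r = 0.971), Cmc2 (r = 0.965), Ttpal (r = 0.961), Gramd3 (r = 0.959) and Styx (r = 0.957). For Kit 1415900_a_at they were Mfsd1 (r = 0.975), Tmeff1 (r = 0.969), Fyb (r = 0.968), Lrrc4 (r = 0.967) and Foxo1 (r = 0.966) by level, and Slc14a2 (r = 0.98), Ccny (r = 0.978), Yipf3 (r = 0.96), Nap1l1 (r = 0.952) and Cd274 (r = 0.948) within groups. No gene stood in both lists of the same member. These are Pearson's r, given as a description over points that share their arrays and, for levels, the difference between genotypes.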

How the data were processed

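Deposited values were used for 4 WT and 5 Tmem203 null testis arrays. The authors checked the scans, applied Robust Multichip Average (background adjustment, quantile normalization, summary by probe set) and deposited log2 signals. The labels name limma without its version. Batches could not be tested, since scan dates were not given in the sources used here.

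The manufacturer's 64 control probe sets were set aside, and the other 45037 were compared between null and WT samples with limma 3.58.1 in R 4.3.3 (lmFit, eBayes) and Benjamini-Hochberg adjustment over all of them. Thresholds follow the methods of the study. Symbols came from the platform annotation (34945 probe sets with 1 symbol, 932 with several, 9160 with none), and 34741 matched the RefSeq gene table. Lists gave counts and medians only, 9 of pathways and 9 of cell types. Differences between probe sets were tested by exact permutation in Python 3.11.15. The members and lists were chosen with earlier results of these data known, and Gfra1 and Kit were among the genes the study lists as higher. Named were all members, Tmem203, the 3 genes with the smallest p in each list and the 5 genes most correlated with Gfra1 and Kit, with the exceptions the text lists. The fit was tested on simulated data. Alternatives were median centring, a second quantile normalization, a trended robust variance, weights per array, filtering on detection first, leaving out cross-hybridizing (_x_at, _s_at) probe sets, the brightest probe set per gene, the replicate block, omission of each array and the methods' t-test. The methods' t-test is the unpaired t-test that the study names for its statistics in general. For its arrays the study used limma. Same-numbered WT and null samples did not deviate together (r from -0.064 to 0.078), so the numbers were not taken as pairs. The number of arrays limits the precision. The median width of the 95% intervals of the 18 probe sets was 0.34.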

Additional observations from a re-analysis of the deposited data

Results flagged for a closer look

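Of 36 groups of values of the 18 probe sets, 1 had a sample far from the others by Dixon's test, which chance flags in about 1 of 20 groups. For Id4 1450928_at, null replicate 2 read 11.16, against 11.05 to 11.07 in the other null samples, with a gap of 0.859 of the range.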

How the results depend on the processing

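The rise of Gfra1 1421973_at kept its direction and passed in all 16 alternative fits, at 1.18 to 1.35 when single arrays were left out (adjusted p at most 0.00233). With the replicate number as a block, which leaves null replicate 5 without weight because it has no WT partner, 1 probe set of the group passed higher and 0 lower. Kit 1415900_a_at was then at 0.44 (adjusted p = 0.0545), Kit 1452514_a_at at 0.61 (0.0529) and Sohlh1 at -0.39 (0.0594), 597 single-gene probe sets passed higher and 424 lower, and the counts of genes on lists were 4 higher and 3 lower for pathways and 4 higher for cell types. The methods' t-test after adjustment gave 905 single-gene probe sets higher and 927 lower, 5 pathway genes higher and 5 lower, 7 cell type genes higher, and Kit 1452514_a_at at 0.65 (adjusted p = 0.0861). At an unadjusted p under 0.01 it gave 1950 single-gene probe sets higher and 1946 lower, and 3 cell type genes lower. Centring on medians left 7 cell type genes higher and ended the passes of Kitl (adjusted p = 0.0686) and Tcf4 (0.0505), and reading each gene by its brightest probe set left 9 pathway genes higher and 5 lower. The cause of these shifts was not tested.

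With each array left out in turn, the probe sets of the group that passed numbered 2 to 3 higher and 1 lower, single-gene probe sets 911 to 1984 higher and 745 to 1255 lower, pathway genes 7 to 13 higher and 4 to 7 lower, and cell type genes 5 to 12 higher and 1 to 2 lower. Kit 1415900_a_at lay between 0.41 and 0.53, Kit 1452514_a_at between 0.50 and 0.75, and Sohlh1 between -0.44 and -0.38. Values near 0 changed sign. Ret 1436359_at was at -0.022 without null replicate 1 and at most 0.19 without any other. Id4 1450928_at was at -0.016 with centring, -0.041 with array weights and -0.030 to 0.059 without single arrays, and Dazl 1419542_at at -0.017 with centring and -0.008 to 0.029 without single arrays. Zbtb16 1419874_x_at passed with a trended robust variance (adjusted p = 0.0433) and with the detection filter applied first (0.0423).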
